A study of Mus musculus with 15 samples.

Results

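The genes described here are 8 members of the machinery that acts on antibody genes after activation-induced cytidine deaminase (AID): *Ung*, *Apex1*, *Apex2*, *Msh6*, *Exo1*, *Polh*, *Trp53bp1* and *Xrcc5*. They were chosen by their known roles and found by symbol among the 21669 genes with a symbol in the deposited RNA-seq table, with no rule on measured values. All 8 were found, and all 8 were among the 11299 genes that passed the filter on low values and were tested. Results for AID itself are not given here.

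AID turns cytosine into uracil in antibody genes, and the fate of that uracil decides what follows. UNG cuts the uracil out and the endonucleases encoded by *Apex1* and *Apex2* nick the strand at the empty site, which is a route to the breaks of class switch recombination. The mismatch repair protein MSH6 binds the U:G mismatch, the exonuclease EXO1 removes a stretch of the strand around it, and DNA polymerase eta, encoded by *Polh*, refills the gap with errors that are a source of somatic hypermutation. The product of *Trp53bp1*, 53BP1, protects broken ends from resection, and Ku80, encoded by *Xrcc5*, holds the ends for non-homologous end joining. The same proteins also repair DNA in dividing cells that carry no AID.

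The cells came from the spleens of wild-type female C57BL/6J mice. Naive B cells (nB) were separated as CD43-, were not stimulated and had no drug. Activated B cells (actB) were sorted as B220+GL7+CD138- and plasmablasts (Pb) as CD138+ after 3 days of culture with LPS, IL2 and IL5. The cultures held DMSO, the vehicle, or GSK343, an inhibitor of the H3K27 methyltransferase EZH2. For Pb with GSK343 the labels name IL6, where those of all other cultured libraries name IL5, although the protocol text and the study's methods give IL5 for every culture. If the labels hold, the cytokine cannot be told apart from GSK343 in Pb, or from the cell stage in Pb against actB with GSK343. Each of the 5 groups had 3 deposited libraries. The columns of nB replicates 1 and 2 differed by less than the sampling noise and were counted as 1 sample, which leaves n = 2 for nB and 14 libraries in all. Each library is a bulk sample, so a change within cells and a change in the share of cells that express a gene cannot be told apart. Values are scaled to the reads of each library, so a rise or fall is one in the share of the RNA. The paper describes a global amplification of the transcriptome in B cells that divide after LPS in vivo. Amounts of RNA per cell were not measured here, and a fall in share need not be a fall per cell.

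The libraries held 19421830 to 26307413 reads. The summed level of 5 B cell markers was 3076 to 3204 RPKM (reads per kilobase of exons, scaled to library size) in nB, 1645 to 1880 in actB with DMSO and 903 to 926 in Pb with DMSO, and that of 4 plasmablast markers rose from 169 to 185 in nB to 1394 to 1521 in Pb with DMSO. Markers of other cells were present in nB: 5 T cell genes summed to 19.4 to 20.8 RPKM, 7 myeloid genes to 168 to 206 and 3 NK cell genes to 9.001 to 9.577, and each of these genes had a mean of at least 0.1 RPKM in nB. In the cultured groups the same sums were at most 0.653, 13.7 and 0.538 RPKM. *Lyz2* made up most of the myeloid sum in nB, with a mean of 166 RPKM against 0.422 in actB with DMSO. The myeloid gene *Itgam* did not fall in actB, with 4.02 RPKM in nB, 4.27 in actB with DMSO and 9.95 in actB with GSK343. All other myeloid genes of the list were lower in each cultured group than in nB. The part of non-B cells in the differences between nB and the cultured groups was not tested. *Ezh2*, the target of the drug, had 14.03 ± 0.356 RPKM in nB (SD, n = 2), 101 ± 6.26 and 120 ± 12.4 in actB with DMSO and GSK343, and 77.7 ± 5.62 and 82.6 ± 4.33 in Pb with DMSO and GSK343 (SD, n = 3). Its mRNA does not report on the activity of the enzyme.

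In mm9 (annotation GENCODE vM1), *Ung* lies at chr5:114580395-114589332, *Apex1* at chr14:51544643-51546814, *Msh6* at chr17:88374390-88390223, *Exo1* at chr1:177810909-177841527 and *Xrcc5* at chr1:72353995-72441526, all on the plus strand. *Apex2* lies at chrX:146954062-147024411, *Polh* at chr17:46308953-46339574 and *Trp53bp1* at chr2:121019017-121097143, on the minus strand. The values counted reads over exons of another annotation, UCSC Known Genes. The paper names a stranded library kit, but the use of strand in the counting is not stated. For *Apex1*, *Trp53bp1* and *Apex2* the GENCODE exons hold 1422, 14164 and 8744 bases, where the lengths deposited with the values are 1185, 11026 and 6431. The overlaps below are those of GENCODE, and those of the counted exons may differ. For *Apex1*, 877 bases or 61.7% of the exons overlap exons of *Tmem55b* on the other strand, and for *Trp53bp1*, 2130 bases or 15% overlap those of *Tubgcp4*. The overlaps of *Apex2* with *Alas2* and *Pfkfb1* cover 3.56% and 1.41% of its exons, and that of *Msh6* with *Fbxo11* covers 0.588%. *Ung*, *Exo1*, *Polh* and *Xrcc5* share no exon bases with another annotated gene. Values of the overlapping genes are given beside *Apex1* and *Trp53bp1*.

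Promoter windows of 300 bases, most of them upstream of the annotated start, were read from RefSeq (GRCm38.p6) and matched 6 of the 8 genes, all but *Apex2* and *Exo1*. The windows of *Apex1*, *Msh6* and *Polh* are shown because these genes rose together on activation and took different courses at the plasmablast stage. They also hold different sets of the short words searched. Because both were used in the choice, no link between words and course can be read from the 3 windows. *Ung* also rose on activation and fell at the plasmablast stage, and its window held none of the words. The windows shown are chr14:50924699-50924998 on the plus strand, chr17:87974800-87975099 on the plus strand and chr17:46202592-46202891 on the minus strand. They are written 5′ to 3′ with the matched words in capitals.
Apex1 promoter: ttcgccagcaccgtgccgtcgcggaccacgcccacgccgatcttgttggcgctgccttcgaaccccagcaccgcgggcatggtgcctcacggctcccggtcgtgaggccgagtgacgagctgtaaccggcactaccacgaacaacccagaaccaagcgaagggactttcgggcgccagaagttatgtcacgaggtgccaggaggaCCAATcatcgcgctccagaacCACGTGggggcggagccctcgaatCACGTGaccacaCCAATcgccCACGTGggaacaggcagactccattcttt
Msh6 promoter: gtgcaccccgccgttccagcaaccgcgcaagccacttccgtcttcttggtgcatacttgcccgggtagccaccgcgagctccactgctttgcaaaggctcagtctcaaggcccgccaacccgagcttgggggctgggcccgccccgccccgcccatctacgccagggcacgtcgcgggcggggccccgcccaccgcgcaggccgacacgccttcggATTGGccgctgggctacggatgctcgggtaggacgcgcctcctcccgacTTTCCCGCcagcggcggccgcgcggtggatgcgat
Polh promoter: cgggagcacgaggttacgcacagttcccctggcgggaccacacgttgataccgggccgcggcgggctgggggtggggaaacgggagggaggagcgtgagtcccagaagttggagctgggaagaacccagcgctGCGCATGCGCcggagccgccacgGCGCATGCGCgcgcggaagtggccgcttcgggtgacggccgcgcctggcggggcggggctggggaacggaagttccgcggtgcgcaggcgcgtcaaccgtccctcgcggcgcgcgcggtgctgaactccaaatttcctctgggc
Words were searched on both strands. The E-box was taken as CACGTG, and the CCAAT box, which NF-Y binds, as the 5 letters of its name. The E2F word was any of TTTCCCGC, TTTGGCGC, TTTCGCGC and TTTGCCGC, and the palindrome of NRF1 is the word in capitals in the *Polh* window. The *Apex1* window held 3 E-boxes and 2 CCAAT boxes, where 7.15% and 37.4% of all 32851 windows held at least 1. The *Msh6* window held 1 E2F word, in 2.26% of all windows, and 1 CCAAT box on the other strand, in capitals as ATTGG. The *Polh* window held the NRF1 word at 2 places, and 0.971% of windows held it. The *Xrcc5* window held 1 E-box and 1 CCAAT box, and those of *Ung* and *Trp53bp1* held none of these words. Among the 10856 windows of tested genes the shares were 10.2% for the E-box, 38.2% for the CCAAT box, 4.05% for E2F and 2.23% for NRF1. Relative to the annotated start, the *Apex1* E-boxes begin at -24, 0 and 21 and its CCAAT boxes at -45 and 12. The *Msh6* E2F word begins at 15 and its CCAAT box at -34, and the *Polh* words begin at -117 and -94. Several of the words thus lie at or after the start. These matches describe letters and show no binding. No overlap between words was seen in the windows shown.

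To see which steps of the pathway change when a naive B cell is activated, actB with DMSO was compared with nB. Of the 8 genes 6 rose, *Trp53bp1* fell and *Xrcc5* did not pass the test. Over all genes tested, 77.2% passed (40.9% rose and 36.3% fell), and the median log2 fold change was 0.053 against 1.24 for the 8 genes. *Exo1* moved farthest, at the 98.5th percentile of the fold changes of all genes tested, and *Polh*, *Ung* and *Msh6* were at the 93.5th, 93.3rd and 91.4th. For the 6 genes that rose every actB library was above both nB libraries, as it was for 44.2% of all genes, and for *Trp53bp1* every actB library was below, as for 39.2%. Fold changes are on the scale of log2(RPKM + 0.25), which understates the change of a gene as low as *Exo1* in nB.

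In the uracil excision branch, *Ung* had 5.14 and 4.21 RPKM in nB and 17.2, 13.9 and 15.1 in actB with DMSO. Every actB library was above both nB libraries, and the rise was 3.18-fold (log2 fold change 1.67, SE 0.13, adjusted p = 1.71e-07, limma). *Apex1*, the main endonuclease of the branch in most tissues, had 15.2 and 15.8 RPKM in nB and 35.2, 26.5 and 35.3 in actB. The groups did not overlap, replicate 2 was the lowest of the actB libraries, and the rise was 2.05-fold (1.04 on the log2 scale, SE 0.18, adjusted p = 0.000162). Its overlapping neighbour *Tmem55b* went the other way, from 44.2 ± 0.285 RPKM in nB to 24.9 ± 1.47 in actB (log2 fold change -0.83, adjusted p = 6.11e-08). *Apex2* was the lower of the pair in every library, with 1.44 and 1.68 RPKM in nB and 2.67, 2.59 and 2.77 in actB. Its groups did not overlap either (log2 fold change 0.69, SE 0.088, adjusted p = 1.13e-05). The ratio of *Apex1* to *Apex2* RPKM was 10.5 and 9.43 in the nB libraries and 10.2 to 13.2 in those of actB with DMSO.

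In the mismatch branch, *Msh6* had 19.1 and 17.5 RPKM in nB and 48.7, 51.4 and 50.4 in actB, a rise of 2.72-fold (log2 1.44, SE 0.057, adjusted p = 1.95e-10). *Msh6* was the most abundant of the 8 genes in every group. *Exo1* was the least abundant in nB, with 0.843 and 0.746 RPKM from 107 and 94 reads, and had 12.3, 10.3 and 12.6 RPKM in actB. The libraries did not overlap, and the fitted change was 11.4-fold (log2 3.52, SE 0.11, adjusted p = 1.96e-11). *Polh* had 7.70 and 8.30 RPKM in nB and 26.3, 25.6 and 28.2 in actB, 3.26-fold higher (log2 1.71, SE 0.090, adjusted p = 3.07e-09). In all 3 genes the activated libraries lay close together and far above the naive ones.

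*Trp53bp1* and *Xrcc5*, which act in end protection and joining, did not share the rise. *Trp53bp1* had 10.6 and 11.7 RPKM in nB and 8.91, 8.88 and 9.18 in actB, so that both naive libraries were above all activated ones (log2 fold change -0.30, SE 0.056, adjusted p = 0.000312). *Tubgcp4*, which overlaps 15% of the *Trp53bp1* exons in GENCODE, rose by 0.36 (adjusted p = 0.00288). *Xrcc5* had 14.5 and 13.9 RPKM in nB and 15.4, 12.3 and 14.5 in actB. These ranges overlapped, and the difference had a 95% interval of -0.29 to 0.25 on the log2 scale (adjusted p = 0.881). An increase of *Xrcc5* of the size seen for *Apex2* lies outside that interval.

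**Figure D1:**
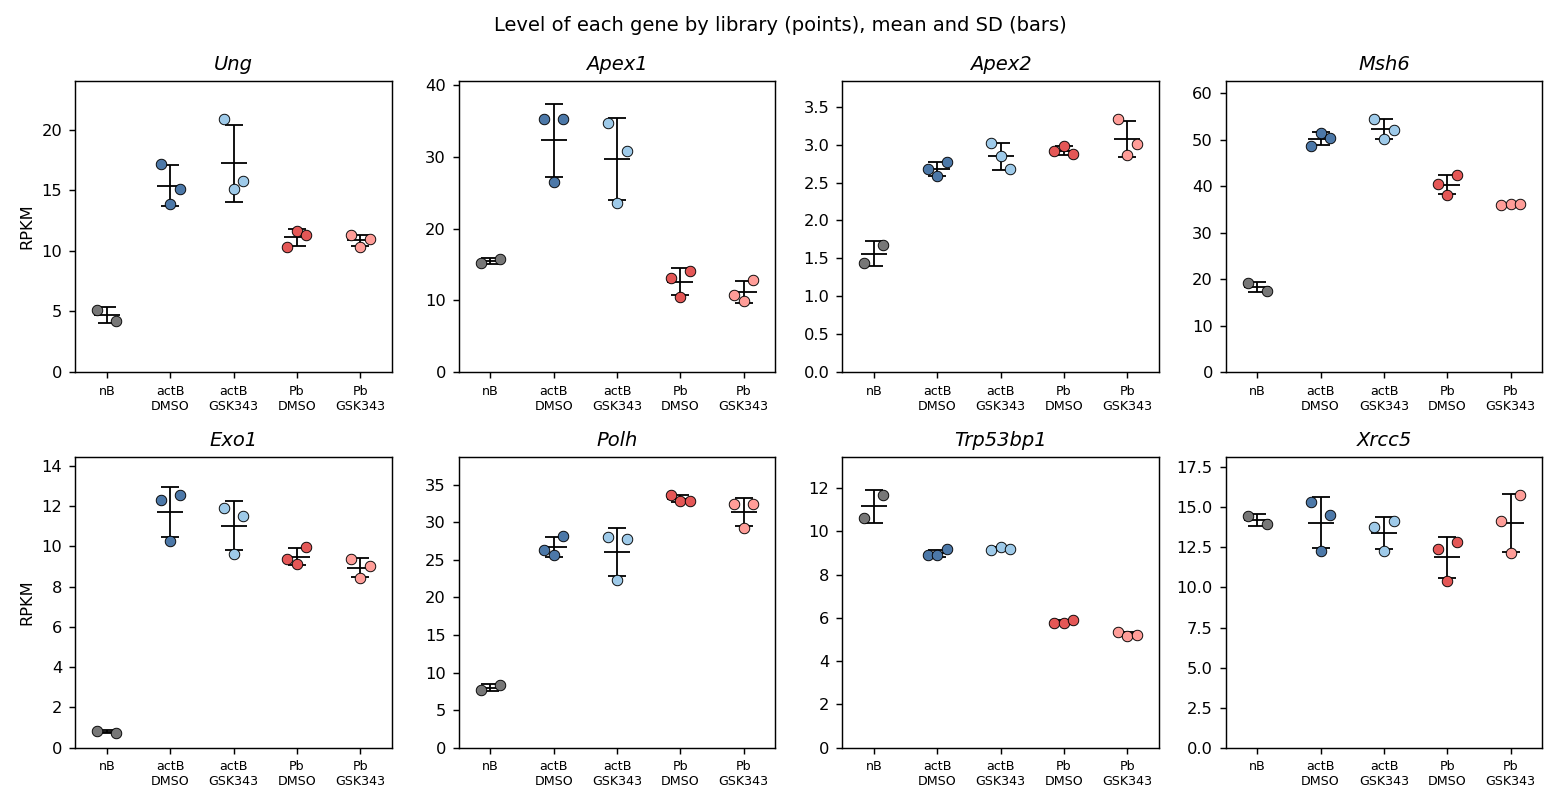
RPKM of each gene (vertical axes, each from 0) in the 5 groups (horizontal axes). Points are libraries (2 for nB, 3 for each other group), and the bars are the mean and SD; *Exo1* has 0.746 to 0.843 RPKM in nB and 8.43 or more in every cultured library, and *Trp53bp1* falls from nB to actB to Pb.

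Other genes of the same pathways were counted from lists for actB against nB, where 40.9% of all genes rose and 36.3% fell. Of 10 other genes of base excision repair 7 rose and 1 fell, with *Lig1* (DNA ligase I) at 2.71 and *Fen1* (flap endonuclease) at 2.01 on the log2 scale, and *Parp1*, a sensor of strand breaks, at -0.38. Of 14 genes of mismatch repair 12 rose and 2 fell, led by the clamp loader subunits *Rfc4* (2.53) and *Rfc5* (1.92), while *Rfc1* (-0.38) and *Mlh3* (-0.28) fell. Of 11 genes of translesion synthesis 8 rose and 2 fell, among them the polymerase genes *Polq* at 3.07, *Poli* at -0.63 and *Rev3l* at -0.42, and *Rad18*, a ubiquitin ligase for PCNA, at 1.46. Of 18 genes of end joining and the break response 12 rose and 1 fell, with *H2afx* (histone H2A.X) at 1.41, *Paxip1*, encoding PTIP, at 1.23 and *Mdc1* at -0.55. Of 9 genes in a list of AID and its cofactors 3 rose and 2 fell. *Gemin2* rose by 0.86, and *Hmces*, whose protein binds abasic sites in single-stranded DNA, fell by 2.20 from 19.7 ± 1.61 to 4.09 ± 0.134 RPKM. Median log2 fold changes of these lists were 0.63, 0.73, 0.68, 0.52 and -0.032.

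Replication genes moved with the repair genes. Of 18 genes of replication and proliferation, 17 rose and *Cdt1* fell (-0.22), with a median log2 fold change of 2.50. The median level of this list was 6.95 to 9.32 RPKM in nB libraries, 71.6 to 88.0 in actB with DMSO and 58.0 to 65.8 in Pb with DMSO. Of the 8 genes *Exo1* alone changed by more than that median. The part of cell division in the rises of *Ung*, *Apex1*, *Apex2*, *Msh6*, *Exo1* and *Polh* was not tested.

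**Figure D2:**
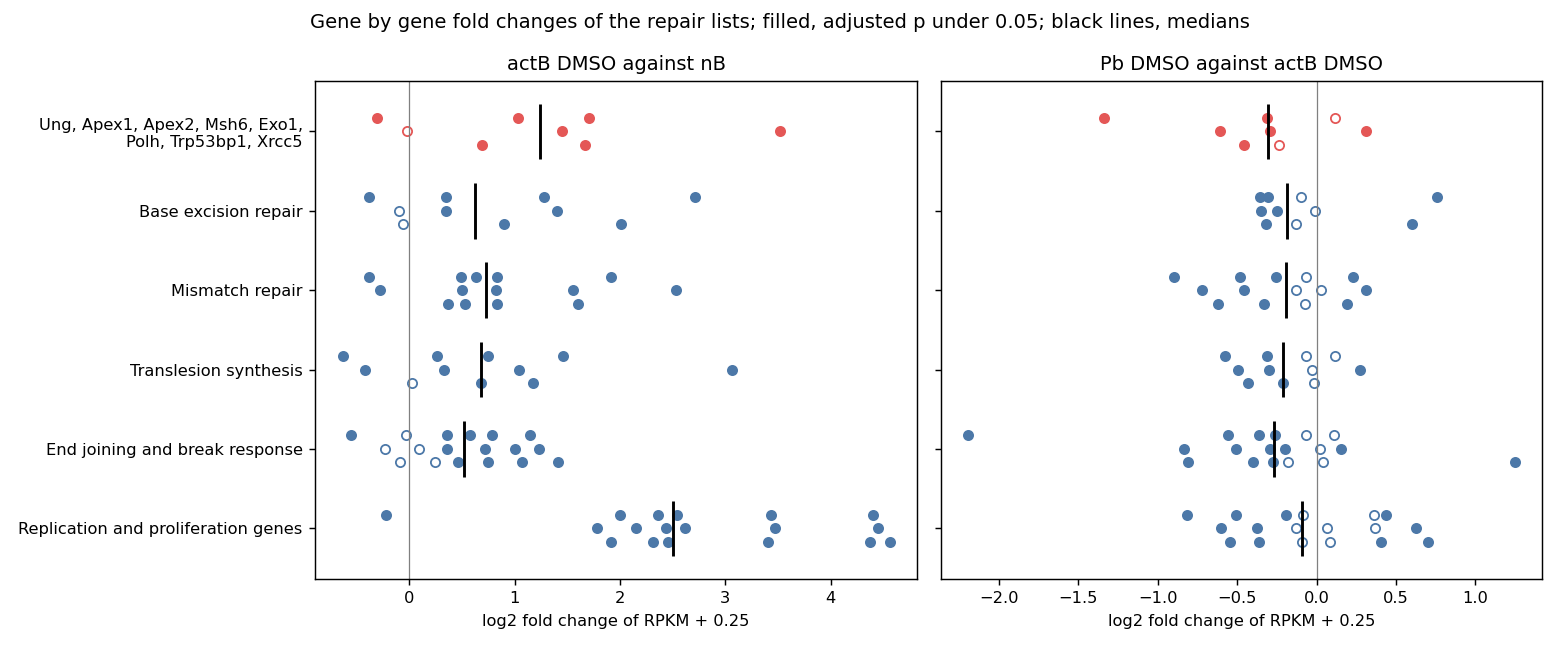
Log2 fold change of each gene (horizontal axis) in the 8 genes and in 5 lists (rows), for actB with DMSO against nB (left) and Pb against actB, each with DMSO (right). Filled points have an adjusted p under 0.05, and black lines are medians; for actB against nB these are 1.24 for the 8 genes and 2.50 for the replication genes, and for Pb against actB all 6 medians are below 0.

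The comparison of Pb with actB, each cultured with DMSO, asks what changes when cells become plasmablasts. Of the 8 genes *Polh* rose, and *Ung*, *Apex1*, *Msh6*, *Exo1* and *Trp53bp1* fell, where 69.7% of all genes tested passed, 27.3% higher and 42.4% lower. Every Pb library was above every actB library for *Polh* and *Apex2* (28.6% of all genes) and below for the 5 that fell (43.3%). The median log2 fold change was -0.30 for the 8 genes and -0.12 for all genes, so that falls as small as 0.12 lie at the middle of the genes. With each library scaled to the median gene, 2 of the 8 (*Polh* and *Apex2*) rose and 4 fell, since *Exo1* lost its call. The shares of all genes that rose and fell under that scaling were not counted, and the shares above do not apply to it. The genes that had risen on activation went different ways at the plasmablast stage.

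*Apex1* fell most. Its 3 Pb libraries had 13.2, 10.5 and 14.1 RPKM against 35.2, 26.5 and 35.3 in actB, and no Pb library reached 0.5 times the level of the actB library with the same replicate number, where the log2 differences were -1.40, -1.31 and -1.31. The fold change was -1.34 on the log2 scale (SE 0.16, adjusted p = 8.54e-06), or 2.53-fold lower. Replicate 2 was the lowest library of its group in both cell types. *Tmem55b* fell by 0.35 (adjusted p = 8.14e-05), from 24.9 to 19.5 ± 0.548 RPKM. *Apex2* did not follow its homolog: it had 2.91, 2.98 and 2.87 RPKM in Pb, all above the 3 actB libraries, with a difference of 0.12 that did not pass the test (95% interval -0.055 to 0.29, adjusted p = 0.205). It passed under median scaling (0.23, adjusted p = 0.0172), quantile normalization and edgeR. The ratio of *Apex1* to *Apex2* was 3.53 to 4.92 in Pb with DMSO, below every actB library.

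*Ung* had 10.3, 11.7 and 11.3 RPKM in Pb, below all actB libraries (log2 fold change -0.46, SE 0.12, adjusted p = 0.00454). It stayed above both nB libraries, with a log2 fold change of 1.21 for Pb against nB (adjusted p = 2.61e-06). *Msh6* had 40.5, 38.2 and 42.4 RPKM in Pb, also below all actB libraries, and fell by 0.31 (SE 0.051, adjusted p = 0.000122).

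*Exo1* had 9.39, 9.11 and 9.95 RPKM in Pb against 10.3 to 12.6 in actB (log2 fold change -0.29, SE 0.095, adjusted p = 0.0144). The libraries did not overlap, but the call was lost with median scaling (adjusted p = 0.0917), quantile normalization (0.169) and edgeR with RLE factors (0.0698), and without actB replicate 1 (0.0545) or 3 (0.0625). *Polh* alone of the 8 rose: its 3 Pb libraries had 33.7, 32.9 and 32.8 RPKM, all above the actB range of 25.6 to 28.2 (log2 fold change 0.31, SE 0.081, adjusted p = 0.00419). It was thus highest in Pb, while *Msh6* and *Ung* were highest in actB.

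*Trp53bp1* had 5.77, 5.74 and 5.92 RPKM in Pb against 8.88 to 9.18 in actB, a fall of 0.61 on the log2 scale (SE 0.050, adjusted p = 3.07e-07). The differences within replicate numbers were -0.604, -0.608 and -0.611. Against nB the fall was 0.91 (adjusted p = 7.73e-09), so that its level was ordered nB, actB, Pb with no overlap between neighbours. *Tubgcp4* fell by 0.30 (adjusted p = 0.00505) from actB to Pb, and its Pb level of 9.30 ± 0.539 RPKM was close to that of nB (8.96 ± 1.222). *Xrcc5* had 12.4, 10.4 and 12.8 RPKM in Pb and overlapped actB (log2 fold change -0.24, SE 0.11, adjusted p = 0.0729). It was lower in Pb in 3 of 3 pairs of the same number, and passed with the replicate number as a block (adjusted p = 0.00162) and without actB replicate 2 (0.0205). With that block 76.2% of all genes passed in this comparison, and the share of all genes with 3 of 3 pairs lower was not counted. The ratio of *Polh* to *Trp53bp1* RPKM was 0.726 and 0.710 in nB, 2.88 to 3.07 in actB and 5.54 to 5.83 in Pb with DMSO, so that this pair moved apart at each stage.

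Directly against nB, 5 of the 8 genes were higher in Pb with DMSO and 1, *Trp53bp1*, was lower, where 39.5% and 41.1% of all genes were (80.6% in all). *Exo1* was 9.32-fold, *Polh* 4.05-fold, *Msh6* 2.19-fold and *Apex2* 1.75-fold above nB (adjusted p at most 2.02e-06). *Apex1* had returned below its naive range, with 10.5 to 14.1 RPKM against 15.2 and 15.8, but the difference did not pass the test (log2 fold change -0.30, 95% interval -0.69 to 0.082, adjusted p = 0.131). All Pb libraries were also below both nB libraries for *Xrcc5* (-0.26, adjusted p = 0.0710). The libraries did not overlap for 5 genes higher in Pb and 3 lower, against 42.7% and 44.2% of all genes. The nB comparisons share their 2 naive libraries, and the actB and Pb comparisons share the actB libraries.

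**Figure D3:**
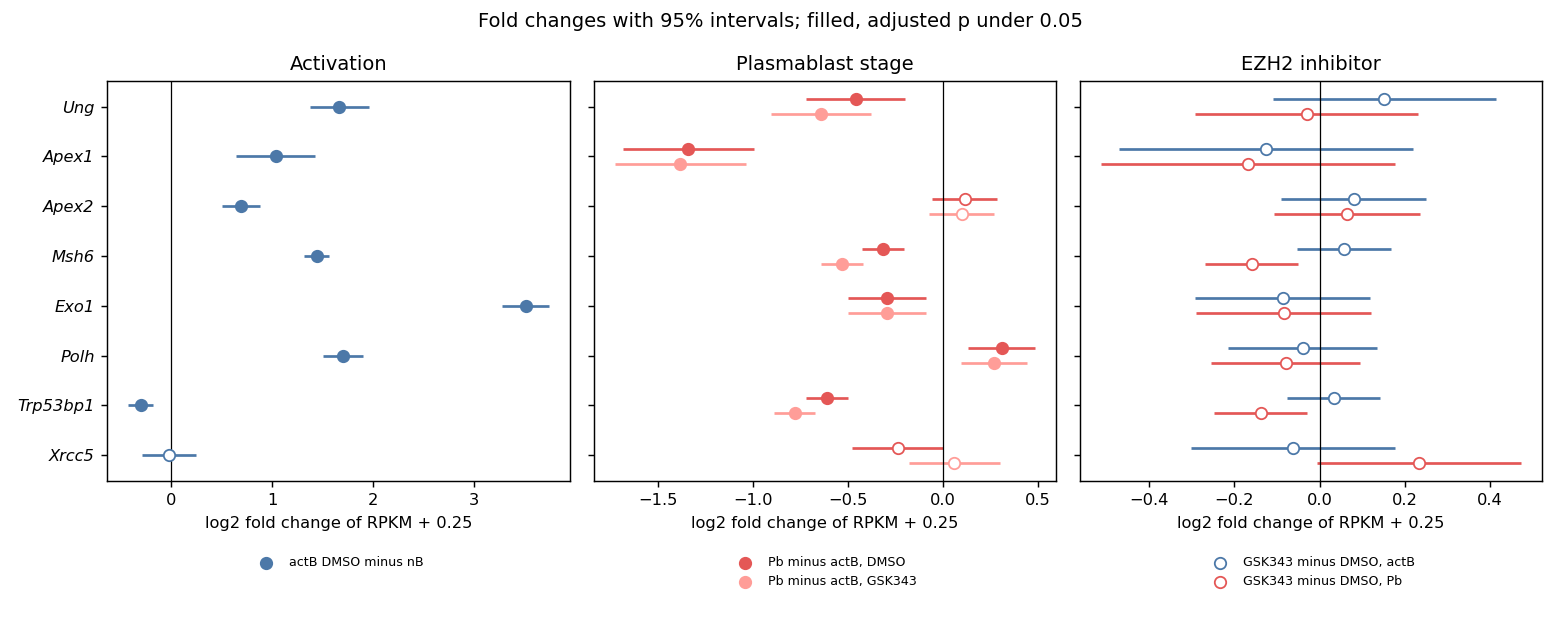
Fold change of each gene on the scale of log2(RPKM + 0.25) (horizontal axes, different ranges) for activation (actB with DMSO minus nB), the plasmablast stage (Pb minus actB, with DMSO and with GSK343) and the EZH2 inhibitor (GSK343 minus DMSO in actB and in Pb). Bars are 95% intervals of limma and filled points have an adjusted p under 0.05; no point for the inhibitor is filled, and *Apex1* falls by 1.34 and 1.38 at the plasmablast stage.

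Other genes of the pathways were counted in the same comparison, to be read beside the 27.3% of all genes that rose and the 42.4% that fell. The counts of rises and falls were 2 and 5 of 10 for base excision repair, 3 and 7 of 14 for mismatch repair, 1 and 6 of 11 for translesion synthesis, 2 and 11 of 18 for end joining and the break response, 1 and 6 of 9 for AID and its cofactors, and 4 and 7 of 18 for replication. The medians, in the same order, were -0.19, -0.19, -0.21, -0.27, -0.40 and -0.090. *Lig3*, DNA ligase III, rose by 0.76 and *Fen1* by 0.60, while *Xrcc1*, the scaffold that carries ligase III, fell by 0.36 and *Polb*, the gap-filling polymerase of base excision repair, by 0.35. *Pms1* fell by 0.90, *Rfc4* rose by 0.31 and *Msh3* by 0.23. *Mad2l2* (REV7), a subunit of polymerase zeta that also acts with 53BP1 at breaks, rose by 0.27, and *Polk* fell by 0.58. *Nbn*, a subunit of the MRN complex, fell by 0.83. *Hmces* rose by 2.94, to 33.0 ± 2.05 RPKM in Pb, above its naive level.

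Pb and actB with GSK343 gave a similar set of values from separate libraries, which were taken as paired by number with those with DMSO. *Apex1* fell by 1.38 (adjusted p = 6.37e-06), *Trp53bp1* by 0.78 (adjusted p = 2.78e-08), *Ung* by 0.64 (adjusted p = 0.000407), *Msh6* by 0.53 (adjusted p = 1.11e-06) and *Exo1* by 0.29 (adjusted p = 0.0148), and *Polh* rose by 0.27 (adjusted p = 0.00937). This was 1 gene higher and 5 lower of 8, where 26.4% and 44.2% of all genes were (70.5% in all) and the median of all genes was -0.14. The libraries did not overlap for *Polh*, higher, and for the 5 genes that fell, against 27.7% and 45.7% of all genes. With median scaling 2 rose, *Polh* and *Apex2*, and 4 fell, where the shares of all genes were not counted. The call for *Exo1* was lost with median scaling (adjusted p = 0.155), quantile normalization (0.309) and edgeR with RLE factors (0.122), and without actB replicate 1 (0.0644) or 3 (0.0552) or Pb replicate 2 (0.0564). *Apex2* (0.10, adjusted p = 0.268) and *Xrcc5* (0.060, adjusted p = 0.645) did not pass.

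The question of the series was what inhibition of EZH2 does to these cells. In actB, none of the 8 genes passed the test for GSK343 against DMSO (adjusted p 0.492 to 0.828, limma), where 10.4% of all genes did, 8.2% higher and 2.16% lower. None had an unadjusted p under 0.05, where 2829 of the 11299 genes tested did. With TMM or RLE factors edgeR called none of the 8, and the shares of all genes it called higher and lower were not counted. The libraries of each of the 8 genes overlapped between GSK343 and DMSO, where 18.3% of all genes had every GSK343 library higher and 7.52% every one lower. *Ung* had 20.9, 15.1 and 15.7 RPKM with GSK343 against 17.2, 13.9 and 15.1 with DMSO. Replicate 1 was the highest in both groups, and the log2 fold change was 0.15 with a 95% interval of -0.11 to 0.41. The intervals were narrow for *Msh6* (-0.053 to 0.17) and *Trp53bp1* (-0.076 to 0.14), and wide for *Apex1* (-0.47 to 0.22) and *Xrcc5* (-0.30 to 0.18). For *Apex2*, *Exo1* and *Polh* they were -0.091 to 0.25, -0.29 to 0.12 and -0.22 to 0.14. Within replicate numbers *Ung* and *Trp53bp1* were higher with GSK343 in 3 of 3 pairs, and *Apex1*, *Exo1* and *Xrcc5* were lower in 3 of 3. The smallest of these differences were 0.00189 for *Trp53bp1* and -0.0018 for *Xrcc5* on the log2 scale. The share of all genes with 3 of 3 pairs alike was not counted, in actB or in Pb.

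In Pb, none of the 8 genes passed either, where 12.9% of all genes did, 7.9% higher and 5% lower. Of the 8, *Msh6* and *Trp53bp1* had an unadjusted p under 0.05, where 3045 of the 11299 genes tested did. With TMM or RLE factors edgeR called these 2 lower, and the share of all genes it called lower was not counted. *Msh6* had 35.9, 36.1 and 36.1 RPKM with GSK343 and 40.5, 38.2 and 42.4 with DMSO. All GSK343 libraries were below all DMSO libraries, by 0.16 on the log2 scale (SE 0.051, 95% interval -0.27 to -0.050, adjusted p = 0.0583). With the replicate number as a block the adjusted p was 0.0280, and without Pb DMSO replicate 2 it was 0.0385.

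*Trp53bp1* had 5.36, 5.18 and 5.23 RPKM with GSK343 and 5.77, 5.74 and 5.92 with DMSO, again without overlap (log2 fold change -0.14, 95% interval -0.25 to -0.029, adjusted p = 0.0940, and 0.0382 with the block). *Polh* was the third gene with all GSK343 libraries lower, at 32.5, 29.2 and 32.4 RPKM against 33.7, 32.9 and 32.8 (-0.080, adjusted p = 0.586). These were 3 of 8 genes, where 15.3% of all genes had every GSK343 library below every DMSO library in Pb, and none of the 8 had them all above, where 18.8% did. *Xrcc5* went the other way. It had 14.2, 12.2 and 15.8 RPKM with GSK343 and 12.4, 10.4 and 12.8 with DMSO, with overlapping ranges (log2 fold change 0.23, 95% interval -0.0060 to 0.47, adjusted p = 0.198). Within replicate numbers it was higher in 3 of 3 pairs, by 0.184, 0.222 and 0.297, and it passed with the block (adjusted p = 0.00950). Under the block 24.3% of all genes passed in Pb, and 1 of the 8 was higher and 2 were lower.

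**Figure D4:**
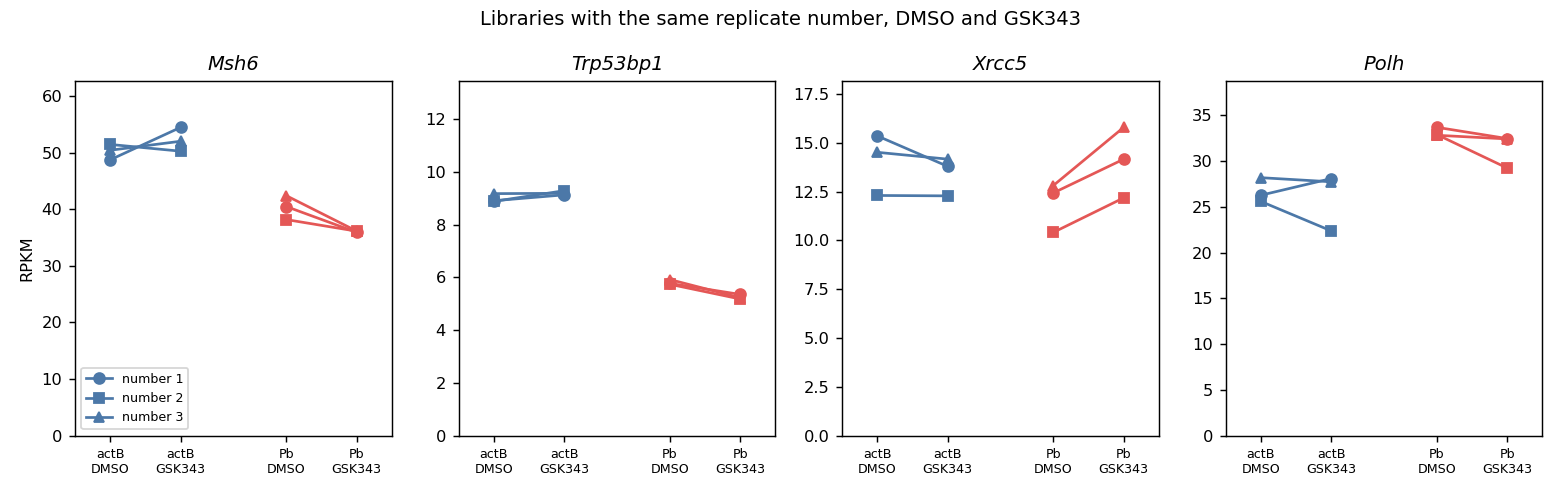
RPKM of *Msh6*, *Trp53bp1*, *Xrcc5* and *Polh* (vertical axes, each from 0) in actB (blue) and Pb (red), with lines that join the DMSO and GSK343 libraries of the same replicate number. In Pb all 3 lines of *Xrcc5* go up, by 0.184 to 0.297 on the log2 scale, and all 3 lines of *Msh6*, *Trp53bp1* and *Polh* go down.

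The other 4 genes overlapped between GSK343 and DMSO in Pb. Within replicate numbers *Apex1* (-0.288, -0.0786 and -0.137) and *Exo1* (-0.00313, -0.109 and -0.14) were lower with GSK343 in 3 of 3 pairs, as in actB. Neither passed with the block, and the share of all genes with 3 of 3 pairs lower was not counted. *Ung* had 11.3, 10.3 and 11.0 RPKM with GSK343, *Apex1* 10.7, 9.95 and 12.8, *Apex2* 3.34, 2.87 and 3.01, and *Exo1* 9.37, 8.43 and 9.01. Their 95% intervals were -0.29 to 0.23, -0.51 to 0.18, -0.11 to 0.24 and -0.29 to 0.12 on the log2 scale. *Tmem55b*, beside *Apex1*, was lower with GSK343 in Pb (-0.20, adjusted p = 0.0267).

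Whether the effect of GSK343 differed between Pb and actB was tested as an interaction, and none of the 8 genes passed, where 0.248% of all genes did. *Msh6* (difference -0.22, adjusted p = 0.322) and *Trp53bp1* (-0.17, adjusted p = 0.482) had an unadjusted p under 0.05, as did 1017 of the 11299 genes tested. For *Xrcc5* the difference was 0.30 (95% interval -0.042 to 0.64, adjusted p = 0.643). No call of edgeR with TMM or RLE factors was made for the 8 genes.

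Among the other pathway genes, *Xrcc1* was lower with GSK343 in both cell types, by 0.36 in actB (36.2 ± 1.76 to 28.1 ± 1.44 RPKM, adjusted p = 0.00231) and by 0.36 in Pb (28.2 ± 1.34 to 21.9 ± 0.658, adjusted p = 0.00202). It was the 1 gene called of 10 in base excision repair in each. *Prkaca*, a catalytic subunit of protein kinase A, which phosphorylates AID, was higher by 0.30 in actB (adjusted p = 0.0147) and 0.24 in Pb (adjusted p = 0.0341). In actB the other calls were *Rfc2* (0.15) of 14 mismatch repair genes and *E2f1* (0.22) of 18 replication genes, with none of 11 in translesion synthesis and of 18 in end joining, where 2 and 2 had an unadjusted p under 0.05. In Pb they were *Msh3* (-0.20) and *Ube2a* (0.36), which encodes an E2 enzyme that acts with RAD18, 1 lower of 18 in end joining and the break response, and 1 lower of 9 in the list of AID and its cofactors. None of the 18 replication genes was called in Pb, and none had an unadjusted p under 0.05.

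Across the 14 libraries the 8 genes fell into few patterns, given here as Pearson's r of log2(RPKM + 0.25), which reflects the differences between the 5 groups. *Ung* and *Msh6* were alike (0.972), as were *Apex2* and *Polh* (0.966), *Exo1* and *Msh6* (0.946), and *Exo1* and *Polh* (0.945). *Trp53bp1* ran against *Polh* (-0.704) and *Apex2* (-0.671), and with *Apex1* (0.697). *Xrcc5* was at most 0.370 with any of the others. The genes most like each of them among all genes tested were *Slc35d1* (0.988) for *Ung*, *Dkc1* (0.995) and *Lrwd1* (0.992) for *Apex1*, *Alg8* (0.985) for *Apex2*, *Wdr90* (0.992) and *Ubr7* (0.992) for *Msh6*, *Esco2* (0.999) and *Incenp* (0.999) for *Exo1*, *Hjurp* (0.995) and *Cpox* (0.993) for *Polh*, *Tmed8* (0.997) and *Nlrc4* (0.996) for *Trp53bp1*, and *Ddx54* (0.816) for *Xrcc5*. *Dkc1* encodes dyskerin, which modifies ribosomal RNA, and *Esco2* and *Incenp* act in sister chromatid cohesion and chromosome segregation. The pattern of *Xrcc5* was thus followed far less closely by any gene than those of the other 7. Its group means ran from 11.9 to 14.2 RPKM, with SDs of 0.395 to 1.81, so r had little difference between groups to reflect.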

How the data were processed

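RNA-seq libraries of nB, actB and Pb (15 deposited columns, 5 groups of 3) were analysed. The authors mapped reads to mm9 with TopHat2, counted those over exons of UCSC Known Genes per Entrez gene, and deposited values as RPM in a table named for RPKM. Every column sums to 1000000, and 100% of values were whole reads within 0.0182 reads. Dividing these RPM by the length in kilobases listed for each gene gave RPKM. Genes without a symbol (92, at most 0.0905% of reads) were left out. A count of 0 allows up to 3 reads, or 0.114 to 0.154 RPM, which covers counting error only. Columns nB 1 and 2 were compared by chi-square per degree of freedom (0.00958, at least 3.58 for every other pair of a group) and averaged. The study calls the replicates biological, and the labels number them without saying that they are separate mice.

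Genes with at least 1 RPKM in at least 3 columns (11299) were fitted in limma 3.58.1 (R 4.3.3; lmFit, contrasts, eBayes with trend) on log2(RPKM + 0.25) over all groups, two-sided, with Benjamini-Hochberg adjustment over all genes tested and calls at 0.05. RPM is not a count, so edgeR 4.0.16 (quasi-likelihood, TMM or RLE) on recovered reads was an alternative. The scripts were tested on simulated data. Other alternatives were pseudocounts of 0.05 and 1, filters, median and quantile scaling, the compared groups alone, all 15 columns, libraries left out, and the replicate number as a block. The numbers were taken to pair the samples, since deviations from group means correlated between all same-numbered cultured libraries (0.158 to 0.502, 0.435 to 0.713 and 0.219 to 0.356 for numbers 1, 2 and 3, against -0.603 to 0.37 otherwise). In the block fit the merged nB library has its own level, so nB replicate 3 alone informs the nB comparisons.

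The 8 genes, the lists and the words searched were chosen from general knowledge and with no rule on measured values, but with earlier results of these data known. Genes named from the lists are the called ones with the largest fold change, at most 2 per direction, list and comparison. *Lyz2* and *Itgam* of the marker lists were named outside this rule. The 2 genes most correlated with each of the 8 were found, and the first or both are named. Results for some genes of the lists, among them ones this rule picks, are not reported here. Lists: base excision repair, mismatch repair, translesion synthesis, end joining and break response, AID and its cofactors, replication, and B cell, naive B cell, plasmablast, T cell, myeloid and NK markers. The sum of 4 naive markers fell from 1133 to 1144 RPKM in nB to 24.5 to 35.0 in Pb with DMSO.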

Additional observations from a re-analysis of the deposited data

How the results depend on the processing

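Of 1040 values of the 8 genes under an alternative, 1002 kept their side of the threshold, 27 passed it newly and 11 lost it. None changed direction with a call. Among the alternatives, shares of all genes called higher and lower were counted for the replicate block only. Some differences without a call did change direction, such as that of *Xrcc5* in actB against nB (log2 -0.11 to 0.11). For the plasmablast stage, 2 genes were called higher in place of 1 under median scaling, quantile normalization and edgeR with TMM or RLE, with DMSO and with GSK343, and leaving out a library gave 4 to 6 lower with DMSO and 4 to 5 with GSK343 (5 in each with all libraries). For Pb against nB, 3 genes were lower with the compared groups alone and 2 with all 15 columns or with replicate 2 left out, against 1. For GSK343 in Pb, none was called, but 1 was lower under quantile normalization, all 15 columns or replicate 2 left out, 2 were lower with the replicate block, edgeR TMM and RLE, and 1 was higher with the block and with replicate 2 left out. Leaving out 1 library gave 0 to 1 lower (1 without Pb DMSO replicate 2). The block changed these calls and that of *Xrcc5* in Pb against actB with DMSO, and no other call of the 8 genes.

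Over all genes, GSK343 changed 1170 in actB and 1458 in Pb, against 2374 and 2751 with the block, 386 in actB with the compared groups alone, and 608 to 1363 and 690 to 1304 with a library left out. The interaction had 28 genes, 18 under quantile normalization, 84 with the block, 4 with the compared groups alone, 48 with all 15 columns, 146 with replicate 2 left out and 0 to 58 with a library left out. The cause of these changes was not tested. Standard errors were largest for *Apex1*, *Ung* and *Xrcc5*, and nB rests on 2 libraries.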
